A study of Homo sapiens with 4 samples.

Results

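Homologous recombination, the Fanconi anaemia pathway and mismatch repair were followed here through 40 genes. They were chosen by symbol, through the Ensembl identifiers of the deposited count table, out of 58233 genes in all, and all 40 were found and measured. By role they comprised 11 genes of strand exchange and its mediators, 6 of end resection and unwinding, 12 of the Fanconi anaemia pathway, 7 of checkpoint signalling and fork protection, and 4 of mismatch repair and related processes. The samples were MIA PaCa-2 and PANC-1 cells, established lines grown from human pancreatic cancers, each with a library labelled PBS and a library labelled CBC. CBC is cannabichromene, a phytocannabinoid of Cannabis sativa. Cells were collected at 24 h. The study's methods give the dose as 35 µM for MIA PaCa-2 and 30 µM for PANC-1, and they speak of a vehicle control where the sample labels name PBS. Dose and cell line therefore cannot be told apart. There was 1 library per condition, so a difference within a line has no replicate check, and the 2 lines are the only replication of the treatment.

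A double-strand break can be repaired from an intact copy of the sequence, usually the sister chromatid. The ends are trimmed to single strands, BRCA1 and BRCA2 with their partners load the strand exchange protein onto them, and the copied strand restores the break. This route is used mostly in S and G2 phase, when a sister is present. The Fanconi anaemia proteins recognise a crosslink between the DNA strands at a stalled replication fork, attach ubiquitin to FANCD2 and FANCI and hand the lesion to nucleases and to homologous recombination. Mismatch repair removes bases that the replicative polymerases paired wrongly. Transcripts of many of these genes rise towards S phase, and E2F factors are known to bind upstream of a number of them. Inherited loss of BRCA1, BRCA2, PALB2 or ATM is known in families with pancreatic cancer.

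Of the promoters of these genes, 7 are printed to show the letters behind the E2F words discussed with the results. Each window runs from 100 bases before to 30 bases from an annotated start, 5′ to 3′ on the strand of the gene, in RefSeq on GRCh38.p14. The first 5 belong to decreased genes that hold an E2F word, shown in capitals on whichever strand it was found. The last 2 belong to the genes with the smallest absolute mean change among those with a promoter window, and neither holds such a word.
EXO1 (chr1:241848104-241848233, plus strand): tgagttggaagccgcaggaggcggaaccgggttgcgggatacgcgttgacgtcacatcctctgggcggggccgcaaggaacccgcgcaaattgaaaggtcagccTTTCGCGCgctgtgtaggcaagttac
CLSPN (chr1:35769949-35770078, minus strand): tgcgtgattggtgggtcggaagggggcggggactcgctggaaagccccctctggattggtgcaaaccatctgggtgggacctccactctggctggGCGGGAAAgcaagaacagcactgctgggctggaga
UNG (chr12:109098072-109098201, plus strand): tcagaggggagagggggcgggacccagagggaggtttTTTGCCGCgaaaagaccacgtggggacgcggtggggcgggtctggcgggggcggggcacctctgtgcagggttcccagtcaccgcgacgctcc
XRCC2 (chr7:152676112-152676241, minus strand): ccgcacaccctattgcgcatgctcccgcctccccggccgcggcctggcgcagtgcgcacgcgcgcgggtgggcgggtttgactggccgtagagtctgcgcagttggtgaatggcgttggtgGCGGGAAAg
FANCD2 (chr3:10026337-10026466, plus strand): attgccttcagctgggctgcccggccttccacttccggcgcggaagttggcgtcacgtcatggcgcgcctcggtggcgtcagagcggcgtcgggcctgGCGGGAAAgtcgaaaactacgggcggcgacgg
RBBP8 (chr18:22933228-22933357, plus strand): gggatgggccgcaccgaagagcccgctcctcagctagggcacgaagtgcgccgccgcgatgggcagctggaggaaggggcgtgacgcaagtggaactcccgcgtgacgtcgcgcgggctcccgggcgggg
PALB2 (chr16:23641281-23641410, minus strand): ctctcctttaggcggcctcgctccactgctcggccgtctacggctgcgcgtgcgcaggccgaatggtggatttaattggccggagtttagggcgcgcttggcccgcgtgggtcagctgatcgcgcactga

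The libraries held 21742775 to 27903667 counts on genes, at which 3 counts, the limit a count of 0 allows, equal 0.11 to 0.135 CPM, the count scaled to the size of its library. The keratins KRT8, KRT18 and KRT19 were abundant in both lines, as was the mesenchymal gene VIM. The keratin KRT7 was low, with 2 counts in the MIA PaCa-2 control and 52 after CBC, and 49 and 58 in PANC-1. The mesenchymal gene CDH2 had 0 counts in both MIA PaCa-2 libraries and 725 and 507 in PANC-1, while ZEB1 had reads in all 4 libraries. The epithelial adhesion genes CDH1 and EPCAM were at or near 0 in MIA PaCa-2. The acinar and islet markers PRSS1, CPA1, CELA3A, INS, GCG and SST had at most 1 count in any library, and PTPRC, CD3E, PECAM1, DCN and LUM of immune, endothelial and fibroblast cells had none. Other markers on those lists had reads. CD14 had 123 and 18 counts in the control and CBC libraries of MIA PaCa-2 and 32 and 2 in PANC-1, and it was called lower (adjusted p = 0.0303). COL1A1 had 3037 and 1268 counts in PANC-1, and in MIA PaCa-2 CDH5 had 49 and 7 and COL3A1 had 61 and 2. The part of these markers in the results was not tested. The share of counts on mitochondrial genes was 5.81% in the MIA PaCa-2 control and 3.86% after CBC, and 4.63% and 2.42% in PANC-1. All 14 markers of proliferation, among them MKI67, TOP2A, CDK1 and PCNA, were lower after CBC in the test across both lines described next. Summed over the markers, MIA PaCa-2 cells had 4971 CPM in the control and 1891 after CBC, and PANC-1 cells had 4984 and 1575. These markers move with every decrease of repair genes given below, and their part in it was not tested. Fewer cells in S and G2 phase and less RNA per cell cannot be told apart in bulk samples.

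After CBC 36 of the 40 repair genes had a log2 fold change below 0 in MIA PaCa-2 and 35 in PANC-1. The median log2 fold change of the 40 genes was -0.95 in MIA PaCa-2 and -1.18 in PANC-1, while the medians of all tested genes were -0.01 and 0.02. A log2 fold change sets CBC against PBS within a line on the CPM scale, after scaling by the trimmed mean of M-values (TMM) and with a prior count of 2. In MIA PaCa-2 cells 16 of the 40 lay below -1, against 8.97% of the 14001 tested genes. In PANC-1 cells it was 23, against 7.03% of 14091 genes. In both lines together it was 14, against 2.98% of 12502 genes. No repair gene lay above 1 in either line, where 11.5% of all genes did in MIA PaCa-2 and 7.71% in PANC-1. Summed over the 40 genes, the CBC library held 57.0% of the control CPM in MIA PaCa-2 (2525 in the control and 1439 after CBC) and 52.4% in PANC-1 (2710.0 and 1420.0).

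**Figure D1:**
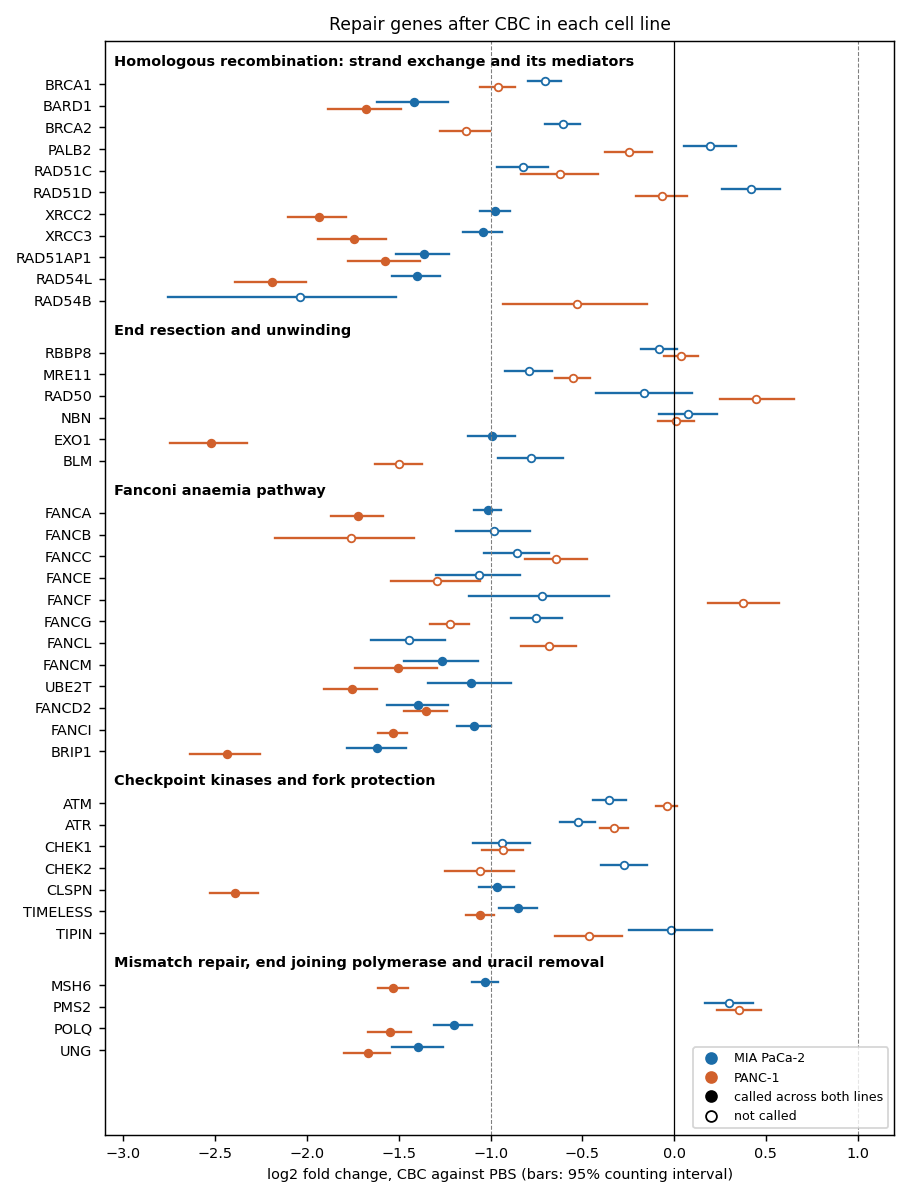
Log2 fold change of CBC against PBS for each of the 40 repair genes, grouped by pathway, in MIA PaCa-2 (blue) and PANC-1 (orange). Bars are 95% counting intervals and filled points mark the 17 genes that passed the test across both lines. Most points lie left of 0, and the resection genes RBBP8 and NBN sit near 0.

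**Figure D2:**
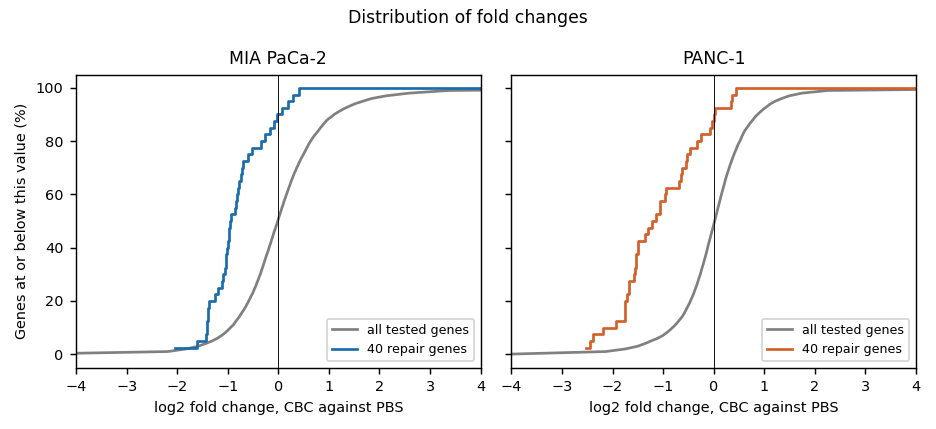
Cumulative share of genes (percent) against their log2 fold change, for the 40 repair genes (coloured steps) and for all tested genes (grey) in each line. The repair genes are shifted to the left over most of the range, with medians of -0.95 and -1.18 against -0.01 and 0.02 for all genes.

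CBC was tested against PBS over the 4 libraries with edgeR's quasi-likelihood test and the cell line as a block. Of the 40 genes 17 fell and none rose at an adjusted p of 0.05 over 16381 genes, of which 2.45% fell and 2.26% rose. Where genes are counted as fallen below, the count is of those that passed this test. The 17 genes were BARD1, XRCC2, XRCC3, RAD51AP1, RAD54L, EXO1, FANCA, FANCM, UBE2T, FANCD2, FANCI, BRIP1, CLSPN, TIMELESS, MSH6, POLQ and UNG. Fanconi genes were 6 of them, strand exchange genes 5, and MSH6, POLQ and UNG a further 3. At an unadjusted p of 0.05, 29 of the 40 passed, all lower, against 3428 of the 16381 genes in either direction. DESeq2 with the same block called 24 lower and none higher, against 725 lower and 586 higher of 12570 genes with an adjusted p. It added BRCA1, BRCA2, BLM, FANCB, FANCE, FANCG and CHEK1 to the 17. The design leaves 1 residual degree of freedom, and the number of calls depends on the model. Without the block edgeR called none of the 40. At an unadjusted p of 0.05 it had 6 lower, against 354 of 16381 genes in either direction. With a trend on GC content removed it called RAD54L and UNG alone. At an unadjusted p of 0.05, 28 were then lower, against 3317 of 16219 genes in either direction. The medians of the 40 genes after removal of that trend within each line were -0.88 in MIA PaCa-2 and -1.17 in PANC-1.

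**Figure D3:**
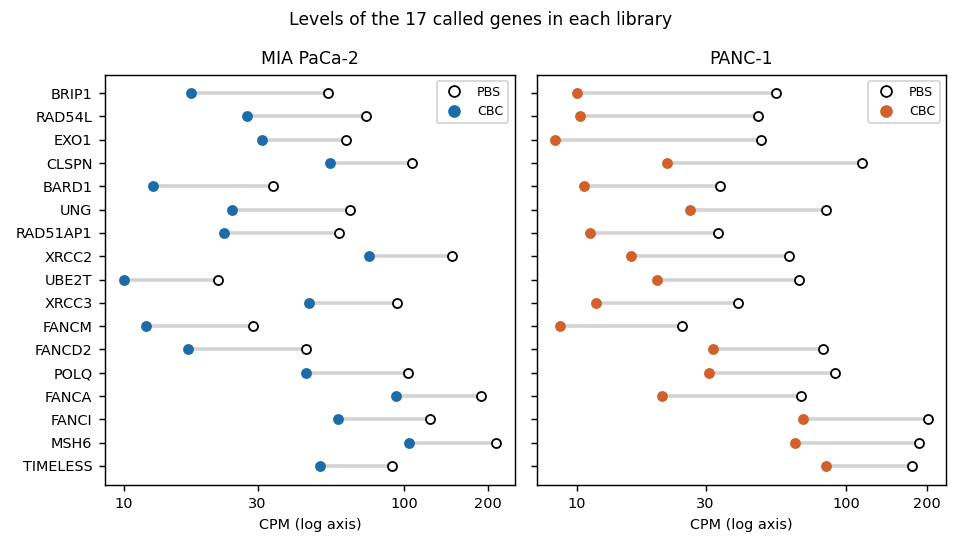
Level of the 17 genes that fell, in CPM on a log axis, in the control library (open) and the CBC library (filled) of each line. In every row of both panels the CBC point lies left of the control point, and the gap is widest for EXO1 in PANC-1.

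Genes that mediate strand exchange were the first group. Of 11 genes, 5 fell across both lines, and the group medians were -0.98 in MIA PaCa-2 and -1.14 in PANC-1. RAD54L, a motor protein that helps the recombining strands to pair (chr1:46246461-46278480, plus strand), had 1625 counts in the MIA PaCa-2 control and 682 after CBC, and 1070 and 280 in PANC-1. On the CPM scale these CBC levels were 37.8% and 21.9% of the control, a log2 fold change of -1.79 ± 0.28 (SE) across both lines with an adjusted p of 0.0188. BARD1, the obligate partner of BRCA1 in its ubiquitin ligase (chr2:214725646-214809683, minus strand), had 758 and 314 counts in MIA PaCa-2 and 773 and 289 in PANC-1. Its levels after CBC were 37.4% and 31.3% of the controls (adjusted p = 0.0242). In both genes the 2 CBC libraries lay below the 2 control libraries on the CPM scale, which was not counted over all genes. RAD51AP1, which stimulates strand invasion, had 1302 and 561 counts in MIA PaCa-2 and 759 and 305 in PANC-1, or 38.8% and 33.6% of the control levels (adjusted p = 0.0230).

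XRCC2 and XRCC3 belong to the paralogue complexes that assist strand exchange. XRCC2 (chr7:152644776-152676193, minus strand) had 3293 and 1862 counts in MIA PaCa-2 and 1391 and 435 in PANC-1. It fell to 50.9% and 26.1% of the control levels, with a log2 fold change of -1.45 ± 0.28 (SE) and an adjusted p of 0.0334. XRCC3 had 2103 and 1135 counts in MIA PaCa-2 and 903 and 322 in PANC-1, or 48.6% and 29.8% of the controls (adjusted p = 0.0319). In both genes the PANC-1 control was below the MIA PaCa-2 CBC library, so that their CBC and control libraries overlapped between lines. The exons of XRCC3 share 76.7% of their bases with KLC1 on the other strand, whose log2 fold changes were 0.59 and 0.83. Whether the counting used strand is not given in the sources used here, and reads of the 2 genes cannot be told apart without it. RAD54L, FANCA and MSH6 share 19.9%, 19.6% and 22.7% of their exonic bases with LRRC41, ZNF276 and FBXO11 on the other strand. Without the 7 of the 40 genes that share over 15% with another gene, 13 of 33 fell.

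The other members of this group did not pass the test. BRCA1, which promotes resection and brings in PALB2, had log2 fold changes of -0.71 and -0.96 with an adjusted p of 0.0740. BRCA2, the loader of the strand exchange protein, had -0.61 and -1.14 with an adjusted p of 0.0908. RAD51C, a paralogue found in both paralogue complexes, had -0.83 and -0.62. PALB2, the bridge between BRCA1 and BRCA2, had 0.19 and -0.25, and the paralogue RAD51D had 0.42 and -0.07. RAD54B, a relative of RAD54L, had the lowest value of any member in MIA PaCa-2. It had 113 counts in that control and 29 after CBC, and 122 and 101 in PANC-1, which gives log2 fold changes of -2.04 (95% counting interval -2.76 to -1.52) and -0.53 (-0.93 to -0.15). These counts were low, and 66.0% of its exonic bases are shared on the same strand with FSBP, which had 10, 1, 7 and 47 counts in the same order of libraries.

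End resection and unwinding held 6 genes, of which EXO1 alone passed the test as lower, while 3 had counting intervals below 0 in both lines. The group medians were -0.47 in MIA PaCa-2 and -0.27 in PANC-1. EXO1, the exonuclease of long-range resection that also works in mismatch repair (chr1:241847967-241895148, plus strand), had 1383 and 773 counts in MIA PaCa-2 and 1094 and 227 in PANC-1. Its level after CBC was 50.3% of the control in MIA PaCa-2 and 17.4% in PANC-1, with a log2 fold change of -1.74 ± 0.39 (SE) and an adjusted p of 0.0469. The call was lost when the libraries were scaled by DESeq2 size factors or by library totals. BLM, the helicase that unwinds resected ends and dissolves joined molecules, had log2 fold changes of -0.78 and -1.50 and an adjusted p of 0.0613. The break sensor MRE11, RAD50 and NBN had no common direction. MRE11, its nuclease, had -0.79 and -0.55. RAD50, the protein that holds the ends together, had -0.16 (95% counting interval -0.43 to 0.10) in MIA PaCa-2 and 0.45 (0.25 to 0.65) in PANC-1, and 76.9% of its exonic bases are shared with an unnamed gene on the same strand (ENSG00000283782) that had 6 to 20 counts. NBN, the signalling subunit, had 0.07 and 0.01. RBBP8, which starts resection together with this complex, had 1670 and 1752 counts in MIA PaCa-2 and 1808 and 2230 in PANC-1, and both its counting intervals included 0 (-0.18 to 0.01 and -0.05 to 0.13).

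The Fanconi anaemia pathway had the most genes that fell by number, with 6 of 12, though not the largest share of a group. Its medians were -1.08 in MIA PaCa-2 and -1.43 in PANC-1. Among the anchor and core complex genes, FANCM, the translocase that brings the complex to DNA, had 643 and 297 counts in MIA PaCa-2 and 560 and 236 in PANC-1, or 41.7% and 35.3% of the control levels (adjusted p = 0.0370). FANCA, a scaffold of the core complex (chr16:89726683-89816977, minus strand), had 4196 and 2310 counts in MIA PaCa-2 and 1550 and 563 in PANC-1, or 49.5% and 30.3% (adjusted p = 0.0287). UBE2T, the ubiquitin conjugating enzyme of the pathway, had 481 and 247 counts in MIA PaCa-2 and 1523 and 540 in PANC-1, or 46.4% and 29.6% (adjusted p = 0.0334). All 3 genes were lower after CBC in each line. On the CPM scale FANCM had close control levels, 28.9 in MIA PaCa-2 and 24.6 in PANC-1. FANCA was higher in the MIA PaCa-2 control and UBE2T in the PANC-1 control.

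FANCD2 and FANCI form the clamp that receives the ubiquitin. FANCD2 (chr3:10026370-10101932, plus strand) had 993 and 419 counts in MIA PaCa-2 and 1868 and 877 in PANC-1. Its CBC levels were 38.0% and 39.1% of the controls, nearly equal in the 2 lines, with a log2 fold change of -1.37 ± 0.23 (SE) and an adjusted p of 0.0221. FANCI (chr15:89243945-89317261, plus strand) had 2763 and 1442 counts in MIA PaCa-2 and 4563 and 1893 in PANC-1, or 47.0% and 34.5% (adjusted p = 0.0227). BRIP1, the helicase partner of BRCA1 also named FANCJ (chr17:61679139-61863559, minus strand), had the largest decrease of the 40 genes across both lines. It had 1193 counts in the MIA PaCa-2 control and 431 after CBC, and 1242 and 274 in PANC-1, or 32.6% and 18.5% of the control levels. Its log2 fold change was -2.02 ± 0.30 (SE) with an adjusted p of 0.0158, the lowest among the 40.

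Of the remaining 6 core complex genes, FANCE was the only one below -1 in both lines. FANCE links the core complex to FANCD2 and had 456 and 242 counts in MIA PaCa-2 and 430 and 210 in PANC-1, with log2 fold changes of -1.06 and -1.29 and an adjusted p of 0.0739. FANCL, the ubiquitin ligase itself, had -1.44 and -0.68. FANCB, which works beside FANCL, had -0.98 and -1.76 and low counts in PANC-1, 230 in the control and 80 after CBC. FANCG and FANCC, further subunits, had -0.75 and -1.22 and -0.85 and -0.64. FANCF, an adaptor of the complex, was the only Fanconi gene whose lines pointed in opposite directions. It had 145 and 97 counts in MIA PaCa-2 and 365 and 569 in PANC-1, with log2 fold changes of -0.72 (95% counting interval -1.12 to -0.35) and 0.37 (0.18 to 0.57).

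Of 7 checkpoint and fork protection genes 2 passed the test as lower, while all 7 lay below 0 in each line. The group medians were -0.53 in MIA PaCa-2 and -0.93 in PANC-1. CLSPN and TIMELESS, which hold the replicative helicase and polymerase together and pass the signal from ATR to CHEK1, were the 2 that passed. None of the 4 kinases passed the test. CLSPN (chr1:35720218-35769978, minus strand) had 2374 and 1350 counts in MIA PaCa-2 and 2589 and 591 in PANC-1, or 51.2% and 19.1% of the control levels (adjusted p = 0.0408). TIMELESS had 2010 and 1241 counts in MIA PaCa-2 and 3992 and 2306 in PANC-1, or 55.5% and 48.1% (adjusted p = 0.0465). TIMELESS lost its call under both other scalings and CLSPN under DESeq2 size factors. The partner of TIMELESS, TIPIN, had log2 fold changes of -0.02 and -0.46. ATM, the kinase activated by breaks, had -0.35 and -0.04, and ATR, activated by single-stranded DNA, had -0.53 and -0.33. CHEK1, the kinase below ATR, had -0.94 and -0.93 with an adjusted p of 0.0631. CHEK2, the kinase below ATM, had -0.27 and -1.06, and copies of its sequence exist as pseudogenes, with which its reads may be shared.

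MSH6, POLQ and UNG, 3 of the 4 genes of the last group, fell, and PMS2 did not. The group medians were -1.12 in MIA PaCa-2 and -1.54 in PANC-1. MSH6, a mismatch recognition subunit (chr2:47695530-47810063, plus strand), had 4745 and 2586 counts in MIA PaCa-2 and 4247 and 1766 in PANC-1, the most counts of any member in the MIA PaCa-2 control. Its CBC levels were 49.0% and 34.6% of the controls, with a log2 fold change of -1.27 ± 0.22 (SE) and an adjusted p of 0.0240. POLQ, the polymerase of microhomology-mediated end joining (chr3:121431431-121545988, minus strand), had 2298 and 1110 counts in MIA PaCa-2 and 2059 and 846 in PANC-1, or 43.5% and 34.2% (adjusted p = 0.0213). UNG, the glycosylase that removes uracil from DNA (chr12:109097597-109126725, plus strand), had 1422 and 600 counts in MIA PaCa-2 and 1904 and 719 in PANC-1, or 38.0% and 31.5% (adjusted p = 0.0172). For these 3 genes both CBC libraries lay below both controls on the CPM scale. The same held for BRCA1, CHEK1, FANCE, BLM, FANCG, FANCC, FANCL and RAD54B, which were not called. The share of all genes was not counted. PMS2, a subunit of the mismatch endonuclease, had 861 and 1178 counts in MIA PaCa-2 and 961 and 1474 in PANC-1, and log2 fold changes of 0.30 and 0.35 (adjusted p = 0.443). Many pseudogene copies of PMS2 are annotated, so its counts are uncertain. Copies are also annotated for BRCA1, RAD51AP1, RBBP8, MRE11, FANCD2, TIPIN and UNG.

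The log2 fold change was lower in PANC-1 than in MIA PaCa-2 for 27 of the 40 genes, and for 24 of the 33 that lay below 0 in both lines. The difference between lines lay below 0 beyond counting error for 22 genes, above 0 for 7, and included 0 for 11. Of the 17 genes that fell it lay below 0 for 13 and included 0 for 4. EXO1 differed most among them, by -1.53 on the log2 scale for PANC-1 minus MIA PaCa-2, and CLSPN by -1.43. RAD54B went the other way, by 1.51. None of these counts was made over all tested genes, so whether they set the repair genes apart was not tested. With 1 library per condition and a different dose in each line, a difference between lines could not be tested across cultures. Across the 40 genes the log2 fold changes of the 2 lines had a Pearson correlation of 0.665, and across all 12502 genes tested in both lines it was 0.592. These are descriptions across genes, which are not independent and share the 4 libraries.

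Per annotated exonic length, the control levels covered a wide range. TPM here is a level per exonic length, computed from the counts and all annotated exons of a gene joined. That length can exceed the length of the transcripts made, and the order of genes depends on it. In MIA PaCa-2 XRCC2 and RAD51AP1 stood highest, with 86.6 and 86.3 TPM. FANCL stood lowest with 3.11 TPM, on an exonic length of 37977 bases. On the CPM scale FANCL had 31.3 in that control, and RAD54B stood lowest with 5.08. In PANC-1 UBE2T and TIMELESS stood highest with 131 and 113 TPM, and FANCB lowest with 2.87 TPM. After CBC RBBP8, whose counting intervals included 0, stood highest in both lines, at 57.8 and 68.7 TPM. Between the 2 control libraries, 6 genes were over 2-fold higher in PANC-1 on the CPM scale (NBN, BLM, FANCF, FANCG, UBE2T and ATM) and 5 were over 2-fold lower (RAD51C, XRCC2, XRCC3, FANCA and FANCB). These differences have no replicate, and neighbours in the order cannot be separated beyond culture-to-culture spread.

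The 40 genes were set beside 138 other repair genes in 8 lists. Their median log2 fold change was -0.25 in MIA PaCa-2 and -0.19 in PANC-1, and 17 of 136 tested fell while none rose in edgeR, where 3 were higher at an unadjusted p of 0.05 and DESeq2 called 0 higher. Among them 19 of 135 lay below -1 in MIA PaCa-2 and 24 of 135 in PANC-1, and 11 in both. Homologous recombination genes outside the 40 gave 9 of the 17 decreases, out of 39. Other Fanconi genes gave 1 of 13 (CENPX), other checkpoint genes 3 of 16 (TOPBP1, WDHD1 and H2AX), translesion and fork remodelling genes 1 of 11 (HLTF) and base excision genes 2 of 20 (NEIL3 and PARP1). Of the genes of non-homologous end joining, which rejoins ends without a template, none of 14 passed the edgeR test. At an unadjusted p under 0.05, 4 were lower and 1 higher, and DESeq2 called 3 lower (PRKDC, XRCC5 and XRCC6). Of the genes of nucleotide excision repair, which cuts out bulky lesions, none of 18 passed. There DDB2 had an unadjusted p under 0.05 and was called lower by DESeq2. The corresponding medians lay between -0.14 and 0.15.

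**Figure D4:**
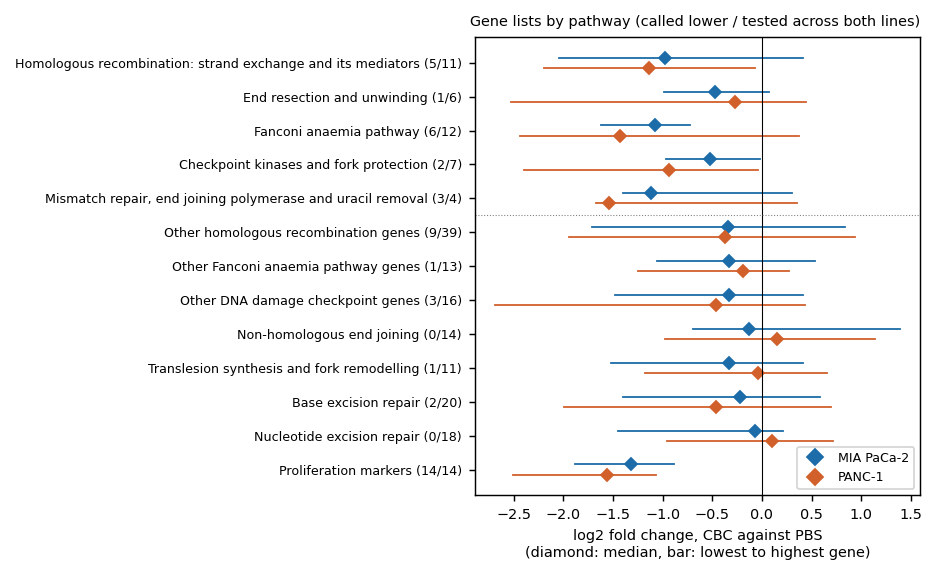
Median (diamond) and lowest to highest gene (bar) of the log2 fold change in MIA PaCa-2 (blue) and PANC-1 (orange) for the 5 groups of the 40 genes, above the dotted line, and for 7 of the other repair lists and proliferation markers below it. Labels give genes that fell over genes tested. The Fanconi and MSH6 groups lie between the proliferation markers, which lie lowest, and the lists of end joining and nucleotide excision repair, which sit near 0.

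MMS22L and TONSL, partners that protect stalled forks and help load the strand exchange protein, fell together. MMS22L had 2067 and 719 counts in MIA PaCa-2 and 1765 and 611 in PANC-1, with log2 fold changes of -1.67 and -1.79 (adjusted p = 0.0123). TONSL had -1.44 and -1.95 (adjusted p = 0.0150). CDC25A, the phosphatase that the checkpoint degrades, had -0.90 and -2.69 and did not pass (adjusted p = 0.0659). Among the other repair genes averaging 10 CPM or more, the highest values were those of ZSWIM7 (0.83 and 0.82), a subunit of the Shu complex, SWI5 (0.71 and 0.46), a mediator of strand exchange, and the fork remodeller SMARCAL1 (0.42 and 0.65), none of which passed the test. The end joining gene APLF, named here after its values were seen, had 51 and 152 counts in MIA PaCa-2 and 39 and 106 in PANC-1 (adjusted p = 0.141).

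Several repair genes share a start region with a gene on the other strand. A protein-coding neighbour started within 1000 bases of 16 of the 40 genes, with 17 neighbours in all, and 11 neighbours were tested in both lines. In edgeR's test none of these 11 fell, while 3 of the repair genes beside them did. FKBP3 alone was lower at an unadjusted p of 0.05, and DESeq2 called it. The medians of the 11 neighbours were 0.14 and 0.13, and those of their repair genes were -0.71 and -0.96. In 8 of the 11 pairs the neighbour had the higher log2 fold change in both lines. NBR1, an autophagy receptor whose start lies 236 bases from that of BRCA1, had 0.44 and 0.41. MOSPD2, a membrane contact protein beside FANCB, had 1.02 and 1.40 and was the neighbour that rose (adjusted p = 0.0460). C12orf4, beside RAD51AP1, had -0.20 and 0.01. FKBP3, a prolyl isomerase beside FANCM, had -0.87 and -0.61 (adjusted p = 0.100 in edgeR).

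**Figure D5:**
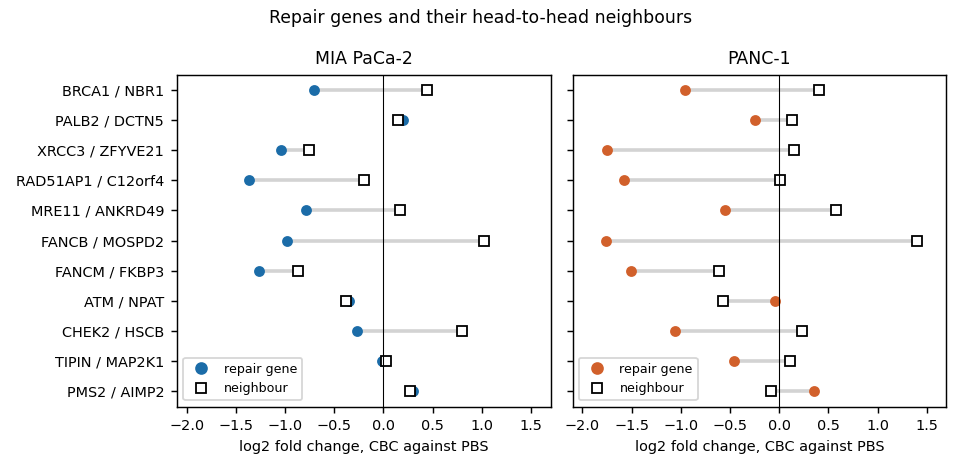
Log2 fold change of 11 repair genes (filled circles) and of the protein-coding gene that starts next to each on the other strand (open squares), in MIA PaCa-2 and PANC-1. The neighbour lies right of the repair gene in both panels for 8 pairs, with the widest gap for FANCB and MOSPD2.

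The promoter windows of RefSeq, from 250 bases before to 50 bases after each start, matched 37 of the 40 genes. On either strand, 10 of the 37 genes (27%) held an E2F word, counted as any of TTTCCCGC, TTTGGCGC, TTTCGCGC or TTTGCCGC, against 3.99% of all 27305 genes with a window. The word was present in 7 of the 16 genes that fell (43.8%), namely CLSPN, EXO1, MSH6, FANCD2, XRCC2, UNG and FANCA, and in 3 of the 21 others (14.3%), namely PMS2, FANCC and TIPIN. In the printed windows of CLSPN, XRCC2 and FANCD2 it reads on the opposite strand, and in those of EXO1 and UNG on the strand of the gene. The cell cycle genes homology region, searched as TTTGAA, was held by 16.2% of the repair genes and 18.2% of all genes. CCAAT was held by 56.8% against 39.7% and GGGCGG by 83.8% against 48.3%. These words too were more frequent in the genes that fell than in the other repair genes. The shares were 25% and 9.52% for TTTGAA, 68.8% and 47.6% for CCAAT, and 93.8% and 76.2% for GGGCGG. Where a gene has several windows, a word in any of them was counted, and these words are no evidence of binding.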

How the data were processed

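Poly(A) RNA was sequenced by the authors with a strand-specific kit. Their steps were trimming with cutadapt 2.7, alignment to GRCh38 with STAR, and counting per Ensembl gene with HTSeq. The table of raw gene counts was used as deposited, and the deposited CPM files were not used. Of 58233 gene identifiers 57392 had a symbol. Positions and exonic lengths came from GENCODE 44 on GRCh38. Aligner and counter versions and the strand setting of the counting are not given in the sources used here.

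R 4.3.3 and edgeR 4.0.16 gave log2 fold changes, with TMM factors from all 4 libraries and a prior count of 2, for genes with at least 1 CPM in 1 library of a line. Clopper-Pearson intervals at 95% from scipy 1.17.1, like the limit of 3 counts, cover counting error only. CBC was tested against PBS with glmQLFTest, the cell line as a block and Benjamini-Hochberg adjustment over 16381 genes. The pairing comes from the cell line, and deviations of paired libraries from their treatment means correlated at 0.923. Since nothing says that the libraries came from several cultures, p-values cover spread between these 4 libraries and not between cultures. With 1 residual degree of freedom, the variance of each gene is moderated towards that of all 16381 genes. Each SE was calculated back from the log2 fold change and the test statistic. It is therefore moderated too and does not measure how far apart the lines lay for that gene. The test, whose common coefficient of biological variation came to 23%, was also run on simulated data. Those data gave each changed gene the same change in both lines, so that run does not cover changes that differ between lines.

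The 40 genes and the other lists were chosen with earlier results of these data known. Counts in all 4 libraries are given for genes called across lines or past a log2 fold change of -1 in both, and for the largest change of each group. Of other repair lists the 3 largest mean changes in each direction at 10 CPM or more are named. Genes and neighbours beyond this rule, and pseudogene copies, were named after their values were seen. Alternatives changed the filter, the prior count, the scaling, the block, the tool (DESeq2 1.42.0), the call rule and the trends on GC content and length. Leaving out genes that share exonic bases was chosen after seeing the data. The separate count of other mismatch repair genes is not reported here.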

Additional observations from a re-analysis of the deposited data

Results flagged for a closer look

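PALB2 and FANCF stood out because their 2 lines pointed in opposite directions with both counting intervals off 0. The log2 fold change of PALB2 in PANC-1 minus that in MIA PaCa-2 was -0.44, from 0.19 in MIA PaCa-2 and -0.25 in PANC-1. That of FANCF was 1.10, from -0.72 and 0.37. With 1 library per condition these differences were not tested across cultures. Neither gene passed the test across both lines.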

How the results depend on the processing

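The count of 17 genes that fell across both lines changed most with the model. With no replicate block it was 0, with 6 genes at an unadjusted p of 0.05, and no gene of all 16381 was called, against 354 at an unadjusted p of 0.05. With a GC content trend removed and the replicate block kept it was 2, with 28 genes at an unadjusted p of 0.05, when calls over all genes went from 401 lower and 370 higher to 106 and 111. DESeq2 with the block gave 24, against 725 lower of all 12570 genes with an adjusted p. No filter on low counts gave 25, against 1007 lower of 28834. DESeq2 size factors in edgeR gave 14, against 347 lower of all 16381 genes. Library totals gave 15, against 332 of 16381, and a gene length trend removed gave 14, against 344 of 16219. The sets from DESeq2 and without a filter held all 17, and the smaller sets held none but these 17. Where the counting interval had to lie wholly past 2-fold, 10 genes remained in MIA PaCa-2 and 8 in both lines. Leaving out 1 line leaves no test, and the median across lines of -1.10 then ranged from -1.18 to -0.95. None of the 17 genes that fell, and none of the medians, changed sign under the alternatives run. In 7 genes that were not called (PALB2, RBBP8, NBN, RAD51D, FANCF, ATM and TIPIN) 12 values did, all within 0.15 of 0. Across both lines library totals took PALB2 from -0.02 to 0.04 and RBBP8 from -0.02 to 0.04. Of the other alternatives to the counts and medians, 56 stayed within 1.5 times or within the spread. Of the values of single genes, 694 kept their call across lines or, within a line, stayed inside the counting interval. A call was lost in 40 and gained in 15, and 11 values within a line moved outside the interval. Scaling by library totals moved the median of all genes by under 0.1. Low counts gave RAD54B, FANCF, FANCB and RAD50 wide intervals.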
